A study of Mus musculus with 30 samples.

Results

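The CTCF sites described here are those that still carried a called CTCF peak after 12 h of CTCF degradation. They are the peaks of the 0 h CTCF list on chromosomes 1 to 19 and X that overlapped a peak of the 12 h CTCF list by at least 1 bp. There were 2227 such sites among 29926, which is 7.44% (exact Clopper-Pearson 95% interval 7.15% to 7.74%, counting error over peaks only). They are called kept sites, and the other 27699 are called lost sites. Both names refer to peak lists only, since a site without a 12 h peak may hold signal under the authors' threshold.

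CTCF is a zinc-finger protein that reads a long DNA motif and stops cohesin, the ring-shaped complex that extrudes chromatin loops, so that many loops end at paired CTCF sites. SMC1A is a core subunit of cohesin. CHD4 is the ATPase of the NuRD complex, SMARCA4 (BRG1) that of the BAF complexes and SMARCA5 (SNF2H) that of the ISWI complexes, and CHD8 is a CHD-family ATPase known to interact with CTCF. All of these ATPases move, space or evict nucleosomes, and CTCF sites are flanked by well-ordered nucleosomes.

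The assay was ChIP-seq in E14 mouse embryonic stem cells, a male line, grown without serum in medium with LIF, PD0325901 and CHIR99021. Every sample had the genotype CTCF AID, in which CTCF carries an auxin-inducible degron, and was taken without IAA (0 h) or after 12 h of IAA, the auxin that starts degradation. CTCF and SMC1A had 1 library per time, so nothing about them has a replicate check. The remodelers were read in cells that carried biotin-CHD4, biotin-CHD8, biotin-SMARCA4 or biotin-SMARCA5 in addition to CTCF AID, with 2 libraries per time each and 16 in all. No cells without the degron were analysed here, so the effect of IAA itself cannot be told apart from that of CTCF loss. The labels do not say whether libraries of a group came from separate cultures, and p-values then measure only the spread between these libraries. The lists hold no expression values, so the labelled cell type was not checked against marker genes, and they hold no read counts, so the depth is unknown. Remodeler lists ran from 40880 to 187294 peaks, and the SMC1A list went from 16724 peaks at 0 h to 10 at 12 h.

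The motif and its surroundings are shown for 12 sites to illustrate a CpG inside the motif, which was more frequent at kept than at lost sites. The printed sites do not give its frequency. Each line gives 77 bases of GRCm38 (mm10) from RefSeq, 5′ to 3′ on the strand of the motif, with the 17-base motif match in capitals. The motif model was built from the 0 h CTCF peaks themselves, and its consensus was GCCACCAGGGGGCGCTA. The list opens with the kept sites of highest 0 h fold (Exosc8, Vps36) and of highest 12 h fold (F730043M19Rik, Ocel1) for which sequence is shown. A kept site with no remodeler peak in any library (Cacna2d2) and a site with a SMC1A peak at both times (Mir6951) follow, then sites near Sox2, Meg3 and Cdkn1a, a kept site whose motif has no CpG (Top1mt), and last the lost sites Adrm1 and Jph3.
Exosc8, kept, chr3:54735441-54735517, plus strand: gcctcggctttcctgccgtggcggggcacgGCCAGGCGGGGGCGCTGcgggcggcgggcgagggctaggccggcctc
Vps36, kept, chr8:22192724-22192800, plus strand: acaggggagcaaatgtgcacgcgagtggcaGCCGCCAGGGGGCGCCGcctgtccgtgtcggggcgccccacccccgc
F730043M19Rik, kept, chr12:33147582-33147658, minus strand: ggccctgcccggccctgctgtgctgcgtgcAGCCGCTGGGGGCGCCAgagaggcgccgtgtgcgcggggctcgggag
Ocel1, kept, chr8:71371738-71371814, plus strand: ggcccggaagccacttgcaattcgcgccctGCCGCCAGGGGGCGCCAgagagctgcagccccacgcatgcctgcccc
Cacna2d2, kept, chr9:107514742-107514818, minus strand: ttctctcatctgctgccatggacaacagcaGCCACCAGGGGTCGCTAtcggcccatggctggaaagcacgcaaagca
Mir6951, kept, chr15:38473896-38473972, minus strand: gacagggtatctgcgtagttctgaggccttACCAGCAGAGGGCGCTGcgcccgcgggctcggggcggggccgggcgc
Sox2, kept, chr3:34647856-34647932, plus strand: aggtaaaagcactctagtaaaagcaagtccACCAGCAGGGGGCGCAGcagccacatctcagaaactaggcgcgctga
Meg3, kept, chr12:109543006-109543082, minus strand: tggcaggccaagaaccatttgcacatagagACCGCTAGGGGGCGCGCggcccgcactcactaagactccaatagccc
Cdkn1a, kept, chr17:29095602-29095678, minus strand: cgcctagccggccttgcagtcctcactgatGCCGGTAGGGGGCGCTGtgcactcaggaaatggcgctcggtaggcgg
Top1mt, kept, chr15:75679427-75679503, minus strand: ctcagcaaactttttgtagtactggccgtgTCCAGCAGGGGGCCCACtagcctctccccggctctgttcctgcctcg
Adrm1, lost, chr2:180171368-180171444, plus strand: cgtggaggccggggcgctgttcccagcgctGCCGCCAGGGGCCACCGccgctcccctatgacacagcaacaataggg
Jph3, lost, chr8:121751586-121751662, minus strand: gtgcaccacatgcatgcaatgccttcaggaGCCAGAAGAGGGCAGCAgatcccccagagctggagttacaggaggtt

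The values that chose the sites are given as a description, with no test. The 0 h fold enrichment, a ratio to local background that the authors' peak caller gave for each peak, had a median of 27.7 at kept sites (range 4.32 to 130.3) and 11.5 at lost sites. The −log10 q of the 0 h peak had a median of 108 at kept and 29.1 at lost sites. When the 0 h list was cut into 10 equal classes of −log10 q, from class 1 (weakest) to class 10 (strongest), class 10 held 58.7% of the kept sites and class 9 another 22.9%. The share of sites kept was 43.7% (41.9% to 45.5%) in class 10 (1308 of 2992), 17.0% in class 9, 8.29% in class 8 and 3.41% in class 7. Only 24 kept sites lay in classes 1 to 5 together. Strength at 0 h therefore differed between kept and lost sites even inside class 10, where the median −log10 q was 139 against 117, so the main comparisons below are also given within classes.

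The 12 h peaks at kept sites lay at the same place as the 0 h peaks. Their median fold enrichment was 8.52 (range 3.21 to 52.0), and their median width was 253 bp against 570 bp at 0 h. Folds of the 2 CTCF lists are set side by side here and below as values of 1 library each of unknown depth, and no change is read from them. The 12 h summit lay a median of 11 bp from the 0 h summit. The smallest overlaps were 190 bp, which was also the width of the shortest 12 h peak. They lay 9426 bp from the start of Pdss2, in an intron of Osbp2, and 8620 bp from the start of 1700016K19Rik. Every kept site had an overlap of at least 67.7% of the shorter peak, so none was near the limit of 1 bp. Outside the rule, the lost sites with the nearest 12 h peaks were separated from them by 230, 268 and 276 bp. The site of highest 0 h fold, at 130.3, had a 12 h fold of 16.4 and lay at chr3:54735083-54735789, 68 bp from the start of Exosc8, which codes for an exosome subunit. The highest 12 h fold, 52.0 after 72.5 at 0 h, was at chr12:33147328-33147907, in F730043M19Rik and 8 bp from its start. Some of the strongest sites had no 12 h peak. The lost sites of highest fold, in Acbd4, near Adrm1 and in Jph3, had 0 h folds of 84.8, 73.0 and 72.9.

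**Figure D1:**
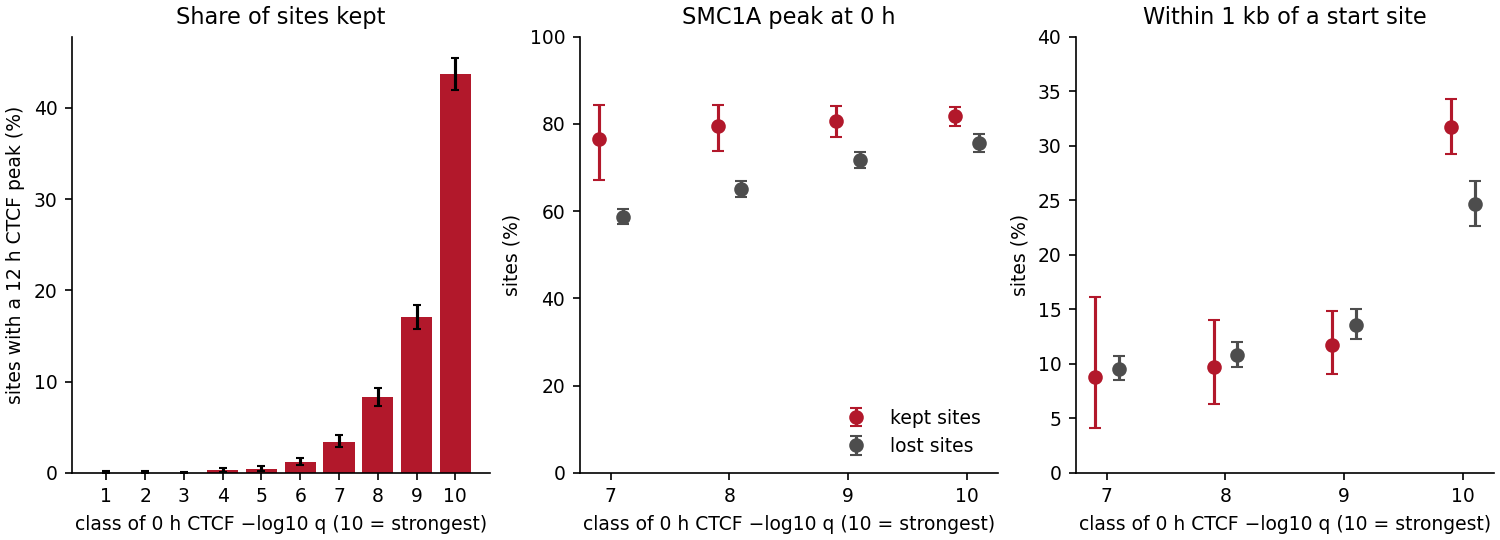
Left, percentage of 0 h CTCF sites with a 12 h peak in each of 10 equal classes of 0 h −log10 q; middle and right, percentage of kept (red) and lost (grey) sites of classes 7 to 10 with a SMC1A peak at 0 h or within 1 kb of a start site. Bars and points are percentages with exact Clopper-Pearson 95% intervals; the share kept reaches 43.7% in class 10, and kept sites lie above lost sites for SMC1A in all 4 classes but for start sites only in class 10.

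Kept sites more often held a CpG in the CTCF motif, and this difference held within strength classes. Cytosines in CpG are the main targets of DNA methylation in mammals, and CTCF binding in vitro is known to be sensitive to methylation within its motif. The lists hold no methylation values, and a part of methylation in this difference was not tested. Among sites that had not been used to build the model, the motif matched at 96.3% of kept and 90.1% of lost sites, with a threshold that 5% of windows moved by 100 kb passed, and in class 10 at 95.7% and 93.9%. Counting from 1 at the 5′ end of the capitals, positions 13 and 14 read CG at 66.9% of kept sites with a match (1175 of 1756, 64.7% to 69.1%) and at 36.5% of lost sites (7721 of 21139). In class 10 the shares were 70.1% (67.2% to 72.9%) and 45.7% (43.0% to 48.5%). Most of the difference came from position 14, where kept sites had G in 75.7% and lost sites in 50.8% of cases, and lost sites more often had A, in 44.7% against 22.7%. A CpG anywhere in the motif was present at 73.1% of kept and 42.9% of lost sites, and in class 10 at 77.7% and 55.9%. The sequences printed above are an illustration and were chosen by rank and by gene. Of the 46 kept sites with a match that the naming rules picked, 36 have CG at positions 13 and 14, and those at Top1mt, Apbb2, Gdf7, Bptf and Hoxa7 are among the 10 that do not. The lost sites Adrm1 and Jph3 lack CG at these positions, although the Adrm1 motif holds CpGs elsewhere. The lost site of highest fold, in Acbd4, which is not printed, has CG there.

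The surrounding sequence differed too, but less so within class 10. Over the 201 bp around the summit the median number of CpGs was 6 at kept and 3 at lost sites, and 7 against 5 in class 10. Median GC content was 54.2% and 48.8%, and 57.2% and 55.7% in class 10. Summits in soft-masked repeats, which include the many CTCF sites that short interspersed elements have spread in rodents, made up 8.04% of kept and 23.8% of lost sites, and 5.89% and 9.26% in class 10. The motif score had a median of 19.7 at kept and 18.3 at lost sites, and 19.4 and 18.5 in class 10. All of these intervals and shares treat sites as independent, although neighbouring sites share their surroundings.

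Cohesin occupied most kept sites before CTCF was degraded. A SMC1A peak of the 0 h library lay within 100 bp of the CTCF summit at 80.6% of kept sites (1795 of 2227, 78.9% to 82.2%) and at 43.0% of lost sites (42.4% to 43.6%). At windows moved by 100 kb the shares were 2.87% and 1.90%. The gap narrowed with strength but was present in each class with over 100 kept sites. In class 7 the shares were 76.5% and 58.8%, in class 8 79.4% and 65.1%, in class 9 80.8% and 71.7%, and in class 10 81.8% (79.6% to 83.9%) and 75.7% (73.5% to 77.7%). Away from start sites, in class 10, they were 84.8% and 76.9%. Within 1 kb of a start site they were 75.4% and 71.8%, with intervals that overlap (71.0% to 79.5% and 67.2% to 76.1%). Read the other way, sites with a 0 h SMC1A peak were kept in 13.1% of cases (1795 of 13710) and those without in 2.66% (432 of 16216). SMC1A peaks at kept sites had a median percentile of 77.5 within their own list, against 55.6 at lost sites, and 79.2 against 75.7 in class 10.

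Having a CTCF peak at 12 h did not go with having a SMC1A peak at 12 h. Only 6 of the 2227 kept sites (0.269%, 0.0989% to 0.585%) overlapped one of the 10 SMC1A peaks of 12 h, and none of the 27699 lost sites did. The strongest of these 6 was intergenic, at chr18:76378605-76379272, with CTCF folds of 85.9 and 24.9 at the 2 times and a 0 h SMC1A fold of 28.7. The others lay near Syt7 (93 bp), Mir6951 (16626 bp), Gm17822 (16848 bp) and Rny3 (20100 bp) and in a coding exon of A830031A19Rik. Of these, the Mir6951 site had CTCF folds of 47.5 and 25.4, and the A830031A19Rik site 43.1 and 29.5. With 1 SMC1A library per time and unknown depth, a small 12 h list and a weak library cannot be told apart.

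Kept sites were more often promoter sites and less often intronic. Within 1 kb of an annotated start site lay 23.0% of kept (512 sites, 21.3% to 24.8%) and 12.7% of lost sites. This difference was seen in class 10, with 31.7% against 24.6%. It was not seen in class 9, with 11.8% against 13.6%, nor in class 8, with 9.68% against 10.8%. Within 100 bp of a start site lay 11.2% of kept and 3.49% of lost sites, and 15.8% and 11.1% in class 10. Intergenic here means a summit outside every annotated gene. Sites just upstream of a start site, such as those near Exosc8 and Vps36, therefore count in both shares. Intergenic sequence held 54.5% of kept and 42.2% of lost sites, and introns 36.3% and 48.7%. Unlike the start-site share, this held in classes 8 to 10, with 51.8% against 38.0% intergenic in class 10, 58.0% against 43.1% in class 9 and 56.0% against 42.8% in class 8. Coding exons held 2.33% of kept and 3.35% of lost sites and untranslated regions 3.91% and 3.65%, which in class 10 were 3.59% and 6.06%, and 5.28% and 6.83%.

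Kept sites were spread over all chromosomes, mostly as isolated sites. The share kept ran from 5.18% on chromosome 16 to 9.94% on chromosome 11 among the autosomes, and was 2.22% on X (12 of 540, 1.15% to 3.85%). X also had the weakest 0 h peaks, with a median −log10 q of 18.4 against 27.6 to 37.9 on the autosomes, and only 4 of its sites were in class 10, of which 2 were kept. The nearest other CTCF site was a median of 8378 bp from a kept and 13051 bp from a lost site, and 7549 and 9031 bp in class 10. Another kept site lay within 10 kb of 11.2% of kept and 5.69% of lost sites, and in class 10 of 11.2% and 8.31%. Walking along each chromosome from CTCF site to CTCF site, 1802 kept sites had no kept site next to them, 170 runs held 2 kept sites in a row, 27 held 3 and 1 held 4. The run of 4 spanned 57.4 kb of chromosome 15 between Slc52a2 and Cpsf1. Among genes of ordinary length, Nmur1 had 4 kept of 7 CTCF sites and Scarb1 4 of 8, counted from 10 kb before to 10 kb after the gene. The gene model with the most was Gm20388, with 20 of 165 over 4435 kb.

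Gene lists were counted by start sites within 10 kb. Of 8944 protein-coding genes with a CTCF site that near, 1136 (12.7%) had a kept one. The list of the p53 gene and its targets had 5 of 11 genes: Trp53 itself, Cdkn1a (a cell cycle inhibitor), Mdm2 (the ubiquitin ligase that removes p53), Sesn2 and Aen. The Hox list had 9 of 31 genes, which share only 4 kept sites. Remodeler genes had 3 of 16 (Arid2, Bptf, Smarcd1) and CTCF and cohesin genes 2 of 12 (Esco1, Pds5b). Pluripotency factors had 1 of 12 (Sox2), imprinted genes 1 of 15 (Meg3), cell cycle regulators 0 of 11 and the X inactivation centre 0 of 2. These small lists were not tested.

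The sites near these genes differed in strength and company. The 2 kept sites near Sox2, a core pluripotency factor, lay in introns of Sox2ot, 2342 bp from Gm42692 and 2505 bp from Sox2, with 0 h folds of 22.1 and 17.5 and 12 h folds of 12.6 and 8.24. Neither had a CHD8 peak in any library, and both had SMARCA4 peaks in all 4 libraries. The site in an intron of Meg3, an imprinted noncoding RNA, had folds of 23.6 at 0 h and 20.5 at 12 h. At Trp53 the site lay in an intron of the overlapping gene Wrap53, 152 bp from its start, with folds of 43.3 and 16.7. At Cdkn1a it was intronic, with folds of 33.4 and 9.55, and at Mdm2 it lay 62 bp from a start, with folds of 25.4 and 13.1. In the Hoxa cluster the kept sites lay in an intron of Hoxa7 and 64 bp from the start of Hoxa5, with 0 h folds of 30.4 and 29.1 and 12 h folds of 15.1 and 11.7.

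The next question was whether kept sites, which retained a CTCF peak, also retained their remodeler peaks. Fewer of them had a CHD4 or CHD8 peak at 12 h, whereas SMARCA4 and SMARCA5 did not separate by time. CHD4 occupied 74.9% and 58.6% of kept sites in its 0 h libraries and 49.8% and 31.0% at 12 h. CHD8 occupied 59.99% and 50.8% at 0 h and 40.5% and 34.5% at 12 h. In both, each 12 h library was below each 0 h library. The CHD4 libraries were unlike each other, since those of replicate 2 had median peak widths of 119 and 94 bp against 433 and 475 bp in replicate 1. SMARCA4 occupied 60.5% and 46.7% at 0 h and 45.4% and 52.4% at 12 h, and SMARCA5 27.4% and 39.8% at 0 h and 31.4% and 19.8% at 12 h. In these the times overlapped. At kept windows moved by 100 kb, occupancy was 3.73% to 13.4% in all 16 libraries.

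Mean CHD4 occupancy of kept sites was 66.7% ± 11.5 (SD, n = 2) before and 40.4% ± 13.2 (SD, n = 2) after degradation, a change of −26.4 percentage points. Mean CHD8 occupancy was 55.4% ± 6.48 (SD, n = 2) and 37.5% ± 4.22 (SD, n = 2), a change of −17.9. SMARCA4 went from 53.6% ± 9.81 (SD, n = 2) to 48.9% ± 4.92 (SD, n = 2), a change of −4.67, and SMARCA5 from 33.6% ± 8.76 (SD, n = 2) to 25.6% ± 8.19 (SD, n = 2), a change of −8.04. These last 2 changes were within the spread of the replicates. Over the 4 remodelers occupancy fell by 14.2 points (exact permutation test, both sides, p = 0.00926, or 0.0116 after Benjamini-Hochberg adjustment over the 5 tests made), and the mean was lower in 4 of 4 remodelers. The fall was not called for sites within 1 kb of a start site (−8.13 points, adjusted exact permutation p of 0.110) or when remodeler peaks had to reach a −log10 q of 5 (−11.0 points, adjusted exact permutation p of 0.0598). When only a remodeler summit inside the window counted it was −8.39 points, with SMARCA4 at −0.31 and SMARCA5 at −0.07. Single libraries moved the change of their remodeler. Leaving out each in turn, the CHD4 change ran from −35.7 (without 12 h replicate 1) to −17.0 points (without 12 h replicate 2), and the CHD8 change from −22.5 to −13.3. The SMARCA4 change was −11.6 without 0 h replicate 2, −8.15 without 12 h replicate 2, −1.19 without 12 h replicate 1 and +2.27 without 0 h replicate 1. The SMARCA5 change was −14.2 or −13.8 without replicate 1 of 0 h or 12 h, and −1.84 or −2.25 without replicate 2 of 0 h or 12 h.

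**Figure D2:**
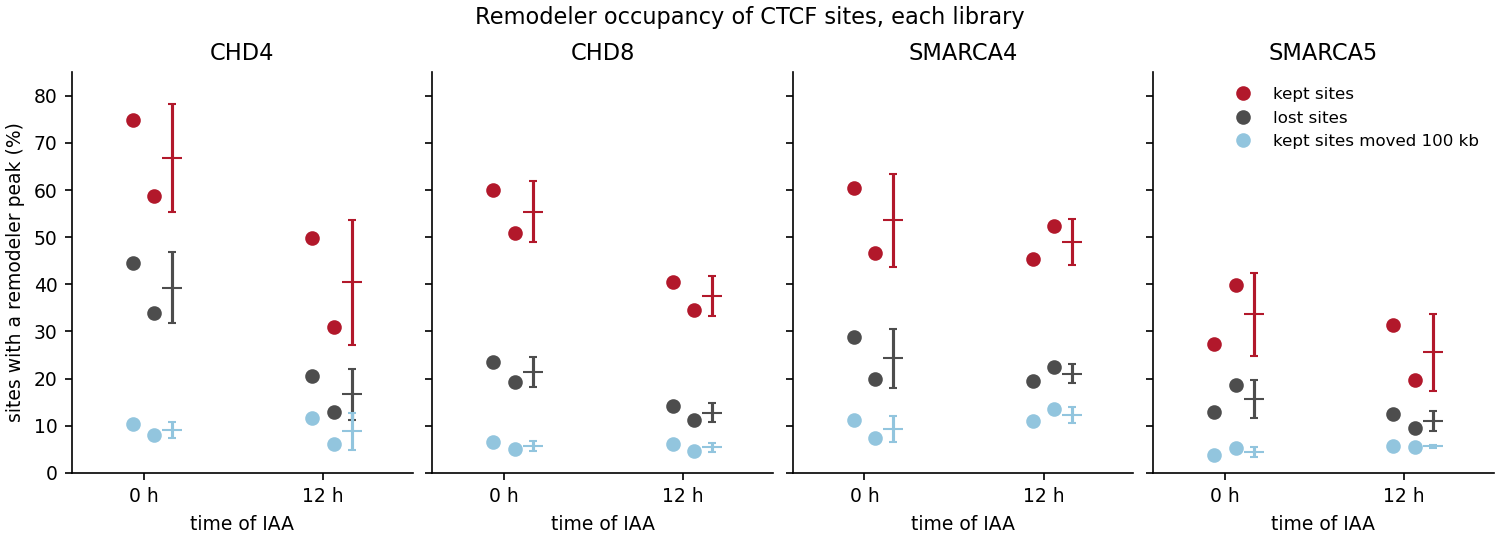
Percentage of kept sites (red), lost sites (grey) and kept sites moved by 100 kb (blue) with a remodeler peak within 100 bp of the CTCF summit, for each library at 0 h and 12 h; bars give the mean and SD of 2 libraries. Kept sites lie above lost sites in every library, and the times separate in CHD4 and CHD8 and overlap at kept sites in SMARCA4 and SMARCA5.

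Kept sites within 1 kb of a start site were occupied more often at both times than the others. There CHD4 went from 86.8% to 72.6%, CHD8 from 90.2% to 79.2%, SMARCA4 from 81.2% to 76.5% and SMARCA5 from 49.8% to 47.4%, with overlap between the times in all but CHD8. Farther away CHD4 went from 60.8% to 30.8%, CHD8 from 45.0% to 25.1%, SMARCA4 from 45.3% to 40.7% and SMARCA5 from 28.8% to 19.1%, with overlap in SMARCA4 and SMARCA5. The difference in change between near and far sites was not tested.

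The lists carry 2 sets of peak names, with the target or the time written first, and within a set the direction was the same. In SMARCA4 occupancy of kept sites changed by −8.13 and −1.21 points within the sets, and in SMARCA5 by −7.63 and −8.44. In CHD4 the set with the target first gave −35.7 points, and the other holds only a 12 h library. All CHD8 lists are of the set with the target first.

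To limit the effect of list length, occupancy of kept sites was set against reference sites, which are regions over 1 kb from any 0 h CTCF peak with peaks in 6 or more of the 12 libraries of the other 3 remodelers. CHD4 occupied 80.8% and 66.1% of its reference sites at 0 h and 83.2% and 56.1% at 12 h. CHD8 occupied 50.5% and 41.4%, then 54.8% and 44.9%. SMARCA4 occupied 87.3% and 77.6%, then 86.5% and 88.9%, and SMARCA5 26.9% and 37.5%, then 43.7% and 32.3%. Relative values therefore also move with the reference sites, and the parts were not separated. Relative to these, kept sites fell in every remodeler, and no 12 h library overlapped a 0 h library. The log2 odds ratio, with 0.5 added to each count, in CHD4 was −0.48 ± 0.03 (SD, n = 2) before and −1.91 ± 0.58 (SD, n = 2) after degradation. CHD8 had 0.55 ± 0.00 (SD, n = 2) and then −0.73 ± 0.14 (SD, n = 2). In SMARCA4 it went from −2.08 ± 0.12 (SD, n = 2) to −2.90 ± 0.06 (SD, n = 2), and in SMARCA5 from 0.09 ± 0.07 (SD, n = 2) to −0.86 ± 0.13 (SD, n = 2). The mean change was −1.12 (exact permutation p = 0.00154, the smallest that the relabellings allow, adjusted 0.00772). It ran from −1.38 to −0.82 over the alternatives tried and passed in each. Lost sites fell against the same reference sites too, again without overlap of the times, so the fall was not particular to kept sites. Lost and kept sites changed as follows: −1.53 and −1.43 (CHD4), −1.13 and −1.28 (CHD8), −0.80 and −0.82 (SMARCA4), −0.95 and −0.95 (SMARCA5). The fall of lost sites was not tested.

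Kept sites had more remodeler peaks than lost sites in every library. The log2 odds ratio of kept against lost sites was 1.80 on average over the 8 libraries of 0 h and 1.78 over the 8 of 12 h, positive in 8 of 8 each time (exact sign-flip permutation p = 0.00781, the smallest possible, adjusted 0.0116). By library it ranged from 1.36 to 2.28 at 0 h and from 1.23 to 2.05 at 12 h. Much of it went with CTCF strength. Taken within the 10 classes of 0 h −log10 q (Mantel-Haenszel), it was 0.69 at 0 h and 0.97 at 12 h, and was positive in every library. All libraries were read at the same kept and lost sites, which rest on 1 CTCF library per time. The p-values therefore do not cover the choice of these sites.

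Whether kept sites held their remodelers better than lost sites depended on the measure as well as on strength. As a ratio of mean occupancy at 12 h to that at 0 h over all sites, kept sites had the higher value throughout, with 0.61 against 0.42 for CHD4, 0.68 against 0.60 for CHD8, 0.91 against 0.87 for SMARCA4 and 0.76 against 0.70 for SMARCA5, and these ratios were not tested. As an odds ratio over all sites together, the contrast changed by −0.02 between 0 h and 12 h (exact permutation p = 0.829, adjusted 0.829). CHD4 contributed +0.10, CHD8 −0.15, SMARCA4 −0.02 and SMARCA5 +0.01, and the times separated only in CHD8. Within the 10 strength classes it rose by 0.27, which gave an exact permutation p of 0.00154 (adjusted 0.00386), again the lowest that can be reached, and every 12 h library lay above both 0 h libraries of its remodeler. The rise was 0.30 in CHD4, from 0.68 ± 0.23 (SD, n = 2) to 0.98 ± 0.19 (SD, n = 2), where the highest 0 h and the lowest 12 h library were 0.841 and 0.844. CHD8 rose by 0.31, from 0.78 ± 0.08 (SD, n = 2) to 1.10 ± 0.01 (SD, n = 2). SMARCA4 rose by 0.21, from 0.82 ± 0.03 (SD, n = 2) to 1.04 ± 0.02 (SD, n = 2), and SMARCA5 by 0.26, from 0.49 ± 0.04 (SD, n = 2) to 0.75 ± 0.22 (SD, n = 2). Within the sets of peak names it rose by 0.25 and 0.18 in SMARCA4, by 0.08 and 0.45 in SMARCA5 and by 0.17 in CHD4. Among class 10 sites alone it rose by 0.19 (exact permutation p of 0.0185). With 50 classes it rose by 0.26 (adjusted exact permutation p of 0.00926). Strength differed between kept and lost sites within a class, and the part this has in the rise was not tested beyond these finer classes.

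**Figure D3:**
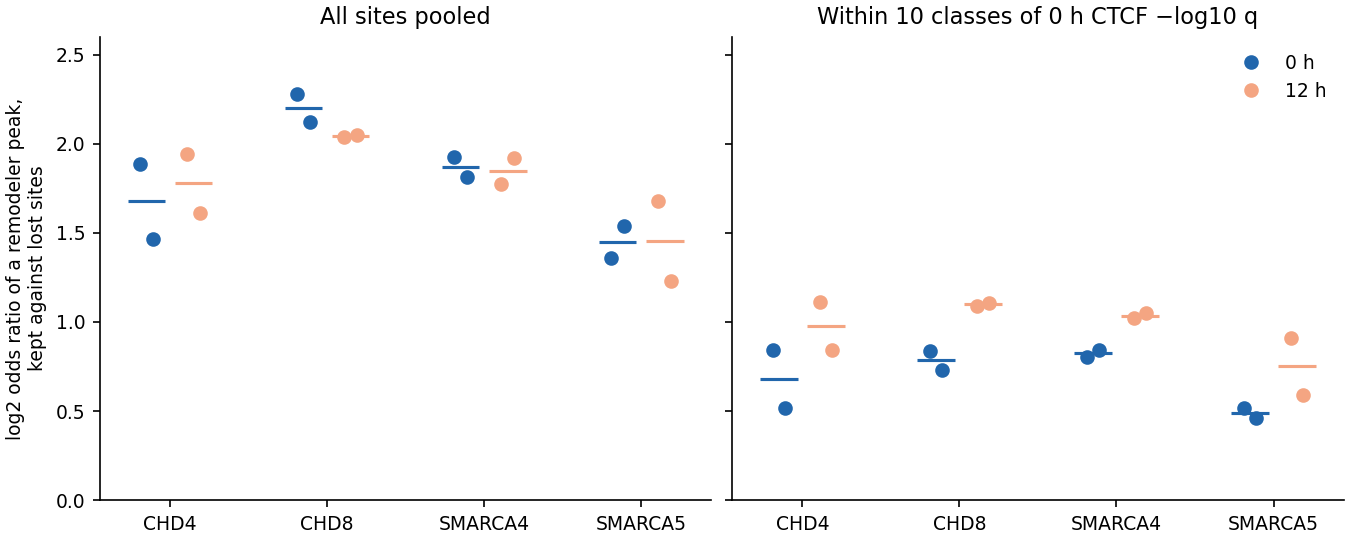
Log2 odds ratio of a remodeler peak at kept against lost sites, for each library (points) with the mean of 2 (lines) at 0 h (blue) and 12 h (orange); left over all sites, right within 10 classes of 0 h CTCF strength. The means change by −0.02 on average at left and rise by 0.27 at right, where all 12 h points lie above the 0 h points of their remodeler.

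In class 10 the same comparison reads in plain occupancy as follows. CHD4 went from 75.8% to 48.4% at kept and from 63.6% to 32.3% at lost sites. CHD8 went from 65.98% to 46.1% at kept and from 52.8% to 28.8% at lost sites. SMARCA4 went from 61.0% to 55.1% at kept and from 47.4% to 39.0% at lost sites, and SMARCA5 from 39.3% to 30.7% and from 31.4% to 20.9%. As over all sites, the ratio of 12 h to 0 h was higher at kept sites in each remodeler, at 0.64 against 0.51, 0.70 against 0.54, 0.90 against 0.82 and 0.78 against 0.67.

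Among kept sites themselves, occupancy at 12 h rose with the strength of the remaining CTCF peak. When kept sites were cut into quartiles of 12 h −log10 q, CHD4 occupancy at 12 h was 31.2% and 19.2% in the 2 libraries for the lowest quartile and 73.8% and 49.4% for the highest. The ratio of mean occupancy at 12 h to that at 0 h rose from 0.43 to 0.77 for CHD4, from 0.50 to 0.83 for CHD8, from 0.84 to 0.95 for SMARCA4 and from 0.62 to 0.96 for SMARCA5. Other features rose along the same quartiles. The share within 1 kb of a start site went from 11.3% to 40.9%, the share with CG at motif positions 13 and 14 from 58.3% to 79.5%, the share with a 0 h SMC1A peak from 78.8% to 83.7%, and the median 0 h −log10 q from 85.5 to 153. Among kept sites over 1 kb from a start site, cut into quartiles anew, the ratios rose from 0.38 to 0.65, from 0.42 to 0.68, from 0.81 to 0.95 and from 0.55 to 0.82. The part of 0 h strength in this order was not tested.

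**Figure D4:**
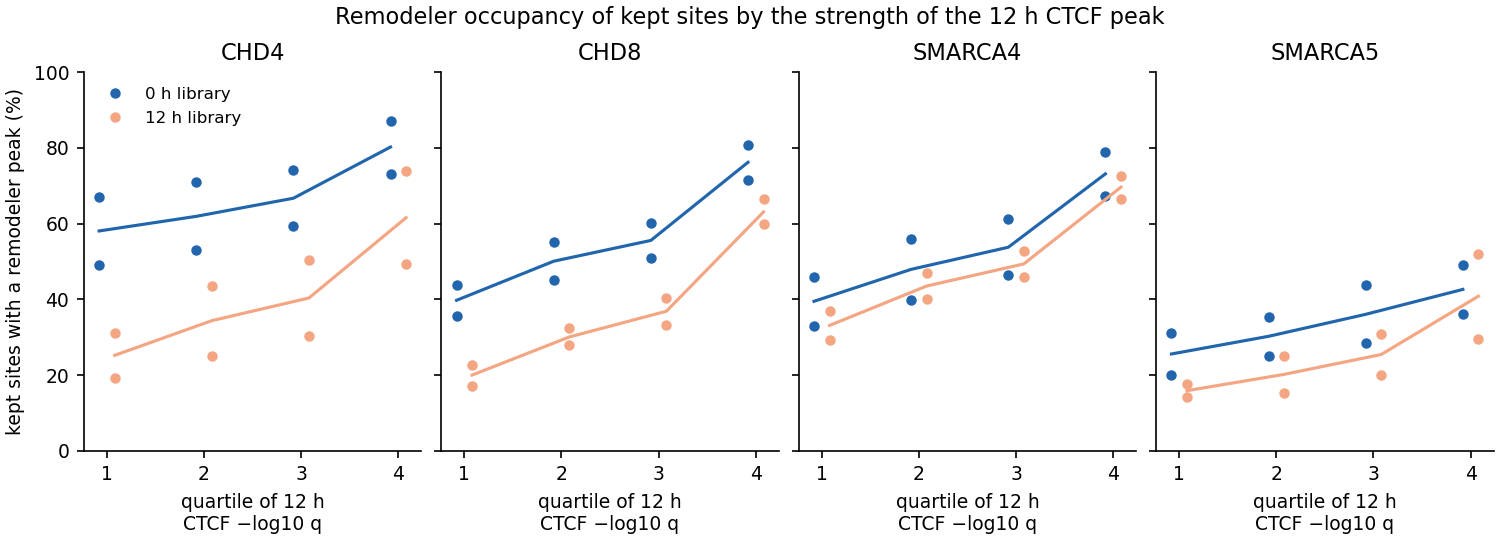
Percentage of kept sites with a remodeler peak in each library at 0 h (blue) and 12 h (orange), by quartile of the −log10 q of the 12 h CTCF peak; lines join the means of 2 libraries. Occupancy rises with the 12 h peak at both times, and the gap between the times is smaller in the highest quartile, with a ratio of 12 h to 0 h from 0.77 to 0.96, than in the lowest, with 0.43 to 0.84.

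Site by site, CHD4 peaks present in both 0 h libraries and absent from both of 12 h were found at 281 kept sites (12.6%, against 12.0% of all CTCF sites), a share near the background. For CHD8 it was 196 (8.80% against 4.52%), for SMARCA4 91 (4.09% against 2.21%) and for SMARCA5 105 (4.71% against 2.38%). Since kept sites more often had both 0 h peaks, they had more to lose. Of kept sites with both 0 h peaks, 22.8% had neither at 12 h in CHD4, against 40.3% of such lost sites, and 18.8% against 25.1% in CHD8. In class 10 these were 20.8% against 30.8% and 18.3% against 30.7%. In SMARCA4 they were 9.70% against 11.5% and in SMARCA5 23.6% against 25.5%, where the interval of the kept share holds the lost one. The opposite, 12 h peaks in both libraries and none at 0 h, was found at 4 kept sites in CHD4 (0.180% against 0.130% of all sites), 6 in CHD8 (0.269% against 0.200%), 49 in SMARCA4 (2.20% against 1.02%) and 26 in SMARCA5 (1.17% against 0.658%).

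The site of highest rank in each group shows how mixed this was. The CHD4 peak lost at chr5:66326322-66326869, in an intron of Apbb2, ranked at a mean percentile of 99.5 in the 0 h lists, at a site with CTCF folds of 35.9 and 7.19. At chr15:75679038-75679808, 646 bp from the start of Top1mt, a mitochondrial topoisomerase, the CHD8 peaks at the 82.1 percentile were gone, and the site went from 6 of 8 remodeler lists at 0 h to 1 of 8, with CTCF folds of 50.4 and 5.90. The Wrap53 site near Trp53 lost its SMARCA4 peaks (percentile 99.9) and kept CHD8 in all 4 libraries. At chr12:8306435-8306956, 4779 bp from Gdf7, the SMARCA5 peaks (percentile 98.8) were gone and the 12 h CTCF fold was 4.50. The gains of highest rank, among far fewer sites, lay at the 73.5 percentile for CHD4 near Abt1, the 42.9 percentile for CHD8 near Gm25637, the 77.8 percentile for SMARCA4 in Sipa1l3 and the 92.4 percentile for SMARCA5 near Tbx3os2.

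At the ends of the range, 126 kept sites (5.66%) had a peak in all 16 remodeler lists, against 2.05% of lost sites, and 242 (10.9%) had none, against 40.9%. In class 10 these were 7.87% against 5.23% and 5.66% against 14.1%. The kept sites of highest 0 h fold with a peak in all 16 lists lay near start sites, 68 bp from Exosc8, 19 bp from Vps36 (a subunit of the ESCRT-II sorting complex) and 83 bp from Nipsnap2. Those with none lay in introns of Cacna2d2 and Treh and 14805 bp from Cd82, with 0 h folds of 48.2, 46.8 and 45.7 and 12 h folds of 9.82, 12.3 and 11.3. All of these 6 sites had a 0 h SMC1A peak. Near start sites 27.7% of kept sites had all 4 remodelers in both 0 h libraries and 6.45% had none of them in both, against 7.70% and 38.0% of the other kept sites.

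Remodeler summits lay at different places around the motif of kept sites. Of CHD8 summits within 250 bp of a kept CTCF summit, 35.5% and 37.4% were more than 100 bp away at 0 h and 49.3% and 48.9% at 12 h. For SMARCA5 the shares were 74.6% and 77.2% at 0 h and 65.99% and 67.7% at 12 h. In both the times did not overlap, and the direction differed. CHD4 had 32.8% and 52.4%, then 43.8% and 54.0%, and SMARCA4 78.1% and 61.4%, then 61.1% and 69.7%, so that the times overlapped. At moved windows the share was 53.1% to 68.4%. Along the strand of the motif, at kept sites with a motif match, most remodeler summits lay past the motif centre in the 3′ direction of the sequence as printed above. At 0 h the CHD8 libraries had 59.96% and 62.6% there, those of SMARCA4 76.8% and 62.8%, and those of SMARCA5 63.7% and 65.9%, with median offsets of 20.5 and 27.5 bp, 140 and 73.5 bp, and 94.0 and 118.5 bp. At 12 h the SMARCA5 offsets were 24.5 and 48.5 bp, below both 0 h libraries, while those of SMARCA4 were 59.5 and 102.5 bp, with overlap. At lost sites the SMARCA4 offsets were 125.5 and 81.5 bp at 0 h and 15.5 and 28.5 bp at 12 h. SMC1A summits sat on the motif, with a median offset of −4.5 bp and 2.78% more than 100 bp from the CTCF summit.

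**Figure D5:**
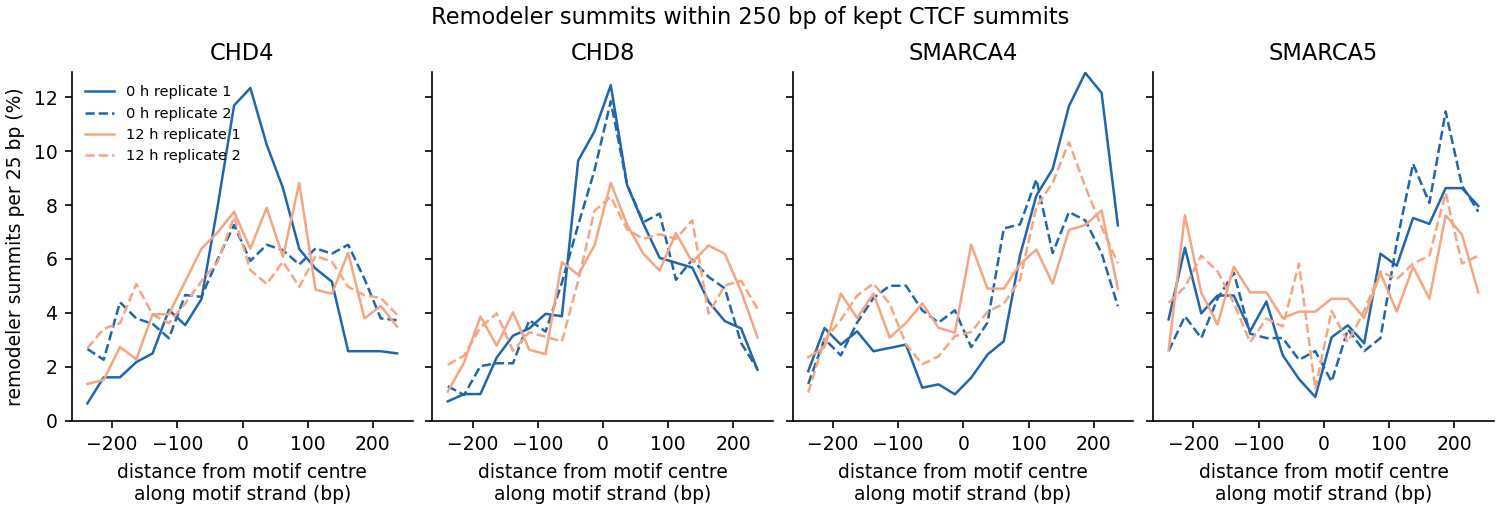
Distribution of remodeler summits around the motif centre of kept sites, in percent of summits per 25 bp along the strand of the motif, for each library at 0 h (blue) and 12 h (orange). CHD8 summits peak over the motif, with 12.4% and 11.8% of 0 h summits in the 25 bp next to its centre on the 3′ side, whereas SMARCA4 and SMARCA5 summits are sparse there at 0 h, with 1.45% to 3.10%, and denser in the 25 bp centred 187 bp away, with 7.44% to 12.9%.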

How the data were processed

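Each of the 20 deposited lists belongs to 1 sample and has the 10 columns of the narrowPeak layout. Fold enrichment (a ratio) and −log10 p and −log10 q are the authors' deposited values. They served for description, ranks and thresholds within a list, and folds of the 0 h and 12 h CTCF lists are printed side by side without a test. The tools Trim Galore, Bowtie2, MACS2 and deepTools and the builds mm10 and hg38 are named by the submitters' processing notes, without roles or versions. The lists have no header, and the threshold of the peak caller is not given in the sources used here. All peaks used ended within the chromosomes of GRCm38 (mm10), taken as the build, with GENCODE M21 basic start sites. The 10 input samples were not analysed here.

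A remodeler or SMC1A peak occupied a CTCF site when it overlapped the summit ± 100 bp by at least 1 bp. Libraries were the units of the tests. The 0 h and 12 h labels were exchanged within each remodeler in all 1296 ways, and contrasts within libraries were tested by all 256 sign patterns, both two-sided. Within a remodeler, 2 libraries against 2 cannot pass. Replicate numbers were not used to pair the libraries in the main tests, and results with a replicate block are given below. In CHD4 and CHD8 the libraries of replicate 2 had the lower occupancy of kept sites at both times. In SMARCA4 and SMARCA5 the order of the numbers differed between the times. The test of the change in contrast was checked on simulated data. The motif model was built on 4636 sites, 1 in 5 of those with a summit outside soft-masked repeats, and searched within 50 bp of the summit, both strands, and shares of motif bases leave these sites out. Named sites were chosen by rank within rules for fold, 12 h fold, lowest −log10 q, remodeler change, remodeler lists at the site, SMC1A at 12 h, listed genes and closeness to the overlap rule. The members, gene lists and rules were chosen with earlier results of these data known. Python 3.11.15, numpy 2.4.6, pandas 2.3.3, scipy 1.17.1 and samtools 1.23.1 were used.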

Additional observations from a re-analysis of the deposited data

Results flagged for a closer look

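Among remodeler summits within 250 bp of a kept CTCF summit, the share over 100 bp away went opposite ways in 2 remodelers. For CHD8 it was higher at 12 h by 12.7 points, at 49.1% ± 0.284 (SD, n = 2) after 36.4% ± 1.40 (SD, n = 2). For SMARCA5 it fell by 9.05 points, to 66.8% ± 1.203 (SD, n = 2) after 75.9% ± 1.86 (SD, n = 2), so that the changes differ by 21.8 points. In both remodelers the libraries of 0 h and 12 h did not overlap, and the difference was not tested. At lost sites the changes were +11.6 and −13.0 points, so lost sites show the same directions. At kept windows moved by 100 kb, with 57 to 84 summits per library, the share was 55.7% to 68.4% in CHD8. In SMARCA5 it was 53.1% to 66.7% there. The share at kept sites thus went towards that of moved windows in both remodelers. Median peak widths were 553 and 538 bp, then 568 and 530 bp, in CHD8, and 358 and 359 bp, then 399 and 366 bp, in SMARCA5. The part of peak width was not tested.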

How the results depend on the processing

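The mean fall in plain occupancy of kept sites (−14.2 points) did not pass among sites within 1 kb of a start site (−8.13 points, adjusted exact permutation p of 0.110) or with remodeler peaks at −log10 q of at least 5 (−11.0 points, adjusted 0.0598), and passed in the other 24 alternatives. The fall relative to reference sites passed in all 27. The change of the kept against lost contrast over all sites, −0.02, turned positive with remodeler summits inside the window (0.19, exact permutation p of 0.100), at sites over 1 kb from a start site (0.0837, exact permutation p of 0.318), in the strongest class (0.19), within 10 classes of 0 h strength (0.27), and in alternatives added after the data were seen, within 10 classes and start-site distance (0.33) and within 50 classes (0.26). Near start sites it came to −0.31 (exact permutation p = 0.114). Leaving out each library in turn gave −0.0738 to 0.0376, positive without CHD4 0 h replicate 1 or 12 h replicate 2, CHD8 0 h replicate 1, or SMARCA5 0 h or 12 h replicate 2. The cause of these changes was not tested. The contrast at 0 h ran from 0.51 to 1.86 and that at 12 h from 0.76 to 1.89 over 28 alternatives each. With a SMC1A list at −log10 q of at least 5, 76.7% of kept sites held a SMC1A peak. The share kept was 7.36% with a 12 h summit within 100 bp of the 0 h summit and 7.35% with both CTCF lists at −log10 q of at least 5, and every kept site met an overlap of 50% of the shorter peak.

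With a replicate block, in which labels were exchanged only between libraries of the same number, plain occupancy (−14.24 points) had an exact permutation p of 0.0312 (adjusted 0.0391), relative occupancy (−1.12) one of 0.00781 and the change of the contrast (−0.0181) one of 0.820, and no call changed. The deviations of same-numbered libraries had correlations of 0.0557 for CHD4, 0.0480 for CHD8, −0.0500 for SMARCA4 and 0.00189 for SMARCA5. These were taken site by site, so they cannot show whether libraries of the same number were handled together. Depth is unknown, and a site without a peak can hold signal under the threshold.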

Other observations

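The kept sites of lowest 0 h −log10 q stand apart from the rest. At chr6:47753650-47754258 and chr6:47761271-47762170, 27687 and 20100 bp from Rny3, the −log10 q was 6.18 and 9.09, there was no motif match, and a peak was listed in all 16 remodeler lists. Their folds were 4.32 and 6.05 in the 0 h list and 5.03 and 6.26 in the 12 h list. The second is among the 6 kept sites with a SMC1A peak at 12 h. A lost site 276 bp from a 12 h peak, at chr6:47760583-47760846, lies beside it. The next in order, at chr5:146675295-146675556, had a motif match and folds of 8.32 and 6.89.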
